A study of Homo sapiens with 20 samples.

Results

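Most proteins of the mitochondrial ribosome are encoded by nuclear genes whose symbols begin with MRPL or MRPS. Subunit genes with other symbols, such as DAP3, are not members here. All probe sets with 1 annotated symbol made of MRPL or MRPS, a number and at most the letter A, B or C were taken, which leaves out pseudogenes. The rule used no measured value. It found 64 of the 22215 probe sets on the array, for 51 of the 11963 genes that have a probe set with 1 symbol. By symbol 31 genes are MRPL and 20 are MRPS. A filter on low signal, set on the mean over all arrays, kept 56 of these probe sets and 49 of the genes, and 13329 probe sets in all.

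Mitochondria translate the few messages of their own genome on a ribosome that is distinct from that of the cytosol. Its rRNAs come from mitochondrial DNA, while its proteins are made in the cytosol and imported. The large subunit forms peptide bonds and holds the exit tunnel, and the small subunit holds the mRNA and the decoding centre. Part of the proteins have bacterial counterparts and part exist only in mitochondria. The products of this ribosome are core subunits of the respiratory chain and ATP synthase, on which liver cells draw heavily.

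The cells were THLE-3, an established line of adult human liver epithelium immortalised with SV40 large T antigen. Their medium held leucine at a low level (0.1 mM) or at a high level (2.0 mM), and sampling at 0, 30, 60, 120 and 480 min gives 10 groups. Each group holds 1 array of a first and 1 array of a second experiment, so 20 arrays of the Affymetrix HG-U133 design, array A, in all. The state of the cells before 0 min, and whether an experiment was a separate culture, are not in the labels, so a p-value here measures the spread between these samples, which may be technical. The study compared leucine levels over time.

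Array means ran from 761.8 to 862.6 intensity units, and the number of arrays limits the precision. Hepatocyte markers ranged from low to high signal: ALB (serum albumin) was at percentile 9.92 of all probe sets by mean signal and TF (transferrin) at 22, while APOA1 was at 67.1 and CYP3A4 at 90.0. Keratin probe sets were high (KRT18 at 99.1, KRT8 at 97.4), but the epithelial adhesion genes EPCAM and CDH1 were at 10.8 and 7.31. The mesenchymal genes VIM (99.2), SPARC (98.6) and COL1A1 (92.3) were also high, while ACTA2 (71.6) and COL1A2 (52.0) were lower. Because probes differ in affinity, such ranks describe signal and not amounts of RNA. Bulk RNA cannot tell fewer cells of a type from less RNA per cell.

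RefSeq promoter windows (build GRCh38.p14), each 250 bases before to 50 bases after a transcription start, were found for 45 of the 51 genes, in 57 windows. MRPL2, MRPL13, MRPL15, MRPL23, MRPL35 and MRPS28 had no window. The stretches below are the 150 bases just before the start. They are shown because MRPL34, MRPL19, MRPL20 and MRPS2 carry the changes described below, and MRPS34 and MRPL52 show the motifs that recur in the family. MRPL34 has 4 windows and MRPS2 has 2, and the 1 shown of each was picked because it holds a match. Of the others, 1 of MRPL34 also holds a match in these 150 bases, while 2 of MRPL34 and 1 of MRPS2 hold none. Capitals mark matches to the motifs searched on both strands, and all other bases are in lower case.
MRPL34, chr19:17305503-17305652, plus strand: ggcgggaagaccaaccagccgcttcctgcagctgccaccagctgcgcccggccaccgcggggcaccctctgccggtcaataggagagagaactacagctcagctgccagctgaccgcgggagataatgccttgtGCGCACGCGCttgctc
MRPL19, chr2:75646633-75646782, plus strand: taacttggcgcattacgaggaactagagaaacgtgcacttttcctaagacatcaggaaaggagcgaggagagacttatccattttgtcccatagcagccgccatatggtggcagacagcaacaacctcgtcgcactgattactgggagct
MRPL20, chr1:1407294-1407443, minus strand: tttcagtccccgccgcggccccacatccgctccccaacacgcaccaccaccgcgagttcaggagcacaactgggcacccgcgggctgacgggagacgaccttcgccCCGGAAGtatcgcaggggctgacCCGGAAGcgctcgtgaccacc
MRPS2, chr9:135499815-135499964, plus strand: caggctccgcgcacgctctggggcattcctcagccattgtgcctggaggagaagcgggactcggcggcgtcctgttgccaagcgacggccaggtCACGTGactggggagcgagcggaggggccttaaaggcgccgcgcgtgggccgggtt
MRPS34, chr16:1773135-1773284, minus strand: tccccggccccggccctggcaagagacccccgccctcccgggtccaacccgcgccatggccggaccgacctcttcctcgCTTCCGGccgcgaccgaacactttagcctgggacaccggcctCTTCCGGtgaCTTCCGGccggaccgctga
MRPL52, chr14:22829737-22829886, plus strand: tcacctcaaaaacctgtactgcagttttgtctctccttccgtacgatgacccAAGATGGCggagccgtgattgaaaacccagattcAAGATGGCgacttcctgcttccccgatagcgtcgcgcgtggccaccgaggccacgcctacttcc

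In the full windows, the ETS-type letters CCGGAAG stood in 19 of 45 member genes (42.2%), against 16.5% of all protein-coding genes with a window. The YY1-type letters AAGATGGC stood in 13 of 45 (28.9%), against 4.66%. At least 1 of these motifs was in 60% of the member genes and in 20.02% of coding genes, and 5 member genes, among them MRPL20, MRPL52 and MRPS12, held both. MRPL34 and MRPL19, both named in the leucine comparison below, held neither. Among the member genes with YY1-type letters, only MRPL52 held them in the 150 bases before the start. The other such genes held them elsewhere in the window.

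The degenerate motif of NRF1, a regulator of nuclear genes for mitochondria, was in 4 of 45 member genes (8.89%) and in 9.66% of coding genes. It marks the capitals of MRPL34, and its palindromic form, which the degenerate motif includes, was in 1 member gene. The E-box CACGTG, marked in MRPS2, was in 5 of 45 (11.1%) against 10.9%. The amino acid response letters TGATGCAA were in 0 of 45 member genes, against 0.903% of coding genes. At so low a share, a count of 0 in 45 genes says little about the family. A match describes letters in a window and not a bound site.

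Among genes kept, mean intensity ran from 383 units (MRPL41, with MRPL44 at 392 and MRPL19 at 443) to 2610 (MRPL57, with MRPL3 at 2315 and MRPL49 at 2127). Since probes differ in affinity, this is a range of signal and sets no gene's RNA against another's. The filter removed both MRPL52, at a mean of 266 with arrays from 227 to 301, and MRPS18C, at a mean of 132 with arrays from 3.20 to 30.2 in the first experiment and from 221 to 294 in the second. MRPS18C is 1 of 3 human homologs of the bacterial protein S18, and its arrays of the experiments do not overlap. Being below the filter, it was not tested.

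Differences are given on the scale log2(intensity + 165.2) after quantile normalization, which understates changes of weak probe sets. Each ± is a standard error, and each group holds n = 2 arrays. Every comparison was fitted in limma over all arrays and all kept probe sets, with Benjamini-Hochberg adjustment and a threshold of 0.05. The unblocked fit has no term for the experiment, and the blocked fit has one. Both give the same change with a different error, and the ± of leucine and time comparisons is that of the blocked fit. A gene with several probe sets is represented by the brightest.

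Leucine level at 480 min gave calls for a few members, all of the large subunit. Small subunit genes with differences of like size fell short of the threshold and are given below. MRPL34, MRPL35, MRPL13 and MRPL19, all large subunit proteins with bacterial counterparts, rose in high relative to low leucine in the blocked fit, by 1.17 to 1.30 times. They are 4 of 56 member probe sets (7.14%), against 2.48% of all probe sets called higher. 0 members were lower, against 1.61%. The unblocked fit called 0 members at 480 min, against 0.27% of all probe sets. An unadjusted p under 0.05 was seen there for 7 of 49 genes, against 6.65% of all probe sets. In the blocked fit it was seen for 14, against 16.6%. Without 1 of the 4 arrays at 480 min the blocked fit called 1 (without the first low or second high leucine array) or 2 (without the second low or first high leucine array).

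MRPL34 encodes bL34m, a small protein of the large subunit. In low leucine its probe set read 1204, 1303, 1274, 1370 and 1216 units over the 5 times in the first experiment and 1341, 1261, 1370, 1363 and 1230 in the second. In high leucine the values were 1177, 1288, 1493, 1288 and 1662 in the first and 1160, 1463, 1385, 1225 and 1666 in the second. Both high leucine arrays at 480 min lie above each of the other 18 arrays. The difference between levels at 480 min was 0.38 ± 0.06 (blocked adjusted p = 0.00351, limma), 0.38 in each experiment, and the unblocked adjusted p was 0.0663. The blocked call held without each of the 20 arrays in turn, with adjusted p up to 0.046.

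MRPL13 encodes uL13m of the large subunit. Its low leucine values over the 5 times were 716, 811, 788, 822 and 648 units in the first experiment and 775, 746, 718, 719 and 582 in the second. Its high leucine values were 702, 767, 793, 754 and 852, then 671, 802, 759, 684 and 752. In deposited units the low leucine arrays at 480 min are the lowest of all 20, and the groups do not overlap at that time. The difference was 0.31 ± 0.07 (blocked adjusted p = 0.0157; unblocked 0.566) and 0.31 in each experiment. Its call was lost without any 1 of the 4 arrays at 480 min, with adjusted p from 0.0593 to 0.126.

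MRPL35 encodes bL35m, also of the large subunit. In low leucine it read 516, 552, 507, 557 and 444 units in the first experiment and 459, 440, 465, 441 and 389 in the second. In high leucine it read 503, 538, 568, 535 and 583, then 387, 472, 454, 407 and 476. At 480 min both high leucine arrays lie above both low leucine arrays, and the second experiment lies below the first in each of the 10 groups. The difference was 0.27 ± 0.06 (blocked adjusted p = 0.0128, limma; in the unblocked fit it was not called, with an unadjusted p of 0.18). It was 0.31 in the first experiment, 0.23 in the second. This probe set carries the array design's mark for possible cross-hybridisation, as do those that represent MRPL41, MRPL44 and MRPS22. The call was lost without the first low leucine array (adjusted p = 0.116), the first high leucine array (0.0634) or the second high leucine array (0.0922) at 480 min.

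MRPL19 encodes bL19m, which in bacteria lies at the interface of the subunits. Its low leucine values were 471, 492, 447, 447 and 386 units in the first experiment and 506, 467, 391, 417 and 407 in the second. In high leucine they were 397, 500, 439, 407 and 480, then 401, 519, 406, 391 and 483. High and low leucine do not overlap at 480 min, nor at 0 min, where high leucine is the lower of the pair. The difference at 480 min was 0.23 ± 0.06 (blocked adjusted p = 0.0465; unblocked 0.587). This is the weakest of the calls: it was lost in 14 of 20 fits that left out 1 array, with adjusted p up to 0.259, and under both other scalings (0.0503 as deposited and 0.0507 with median centring).

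**Figure D1:**
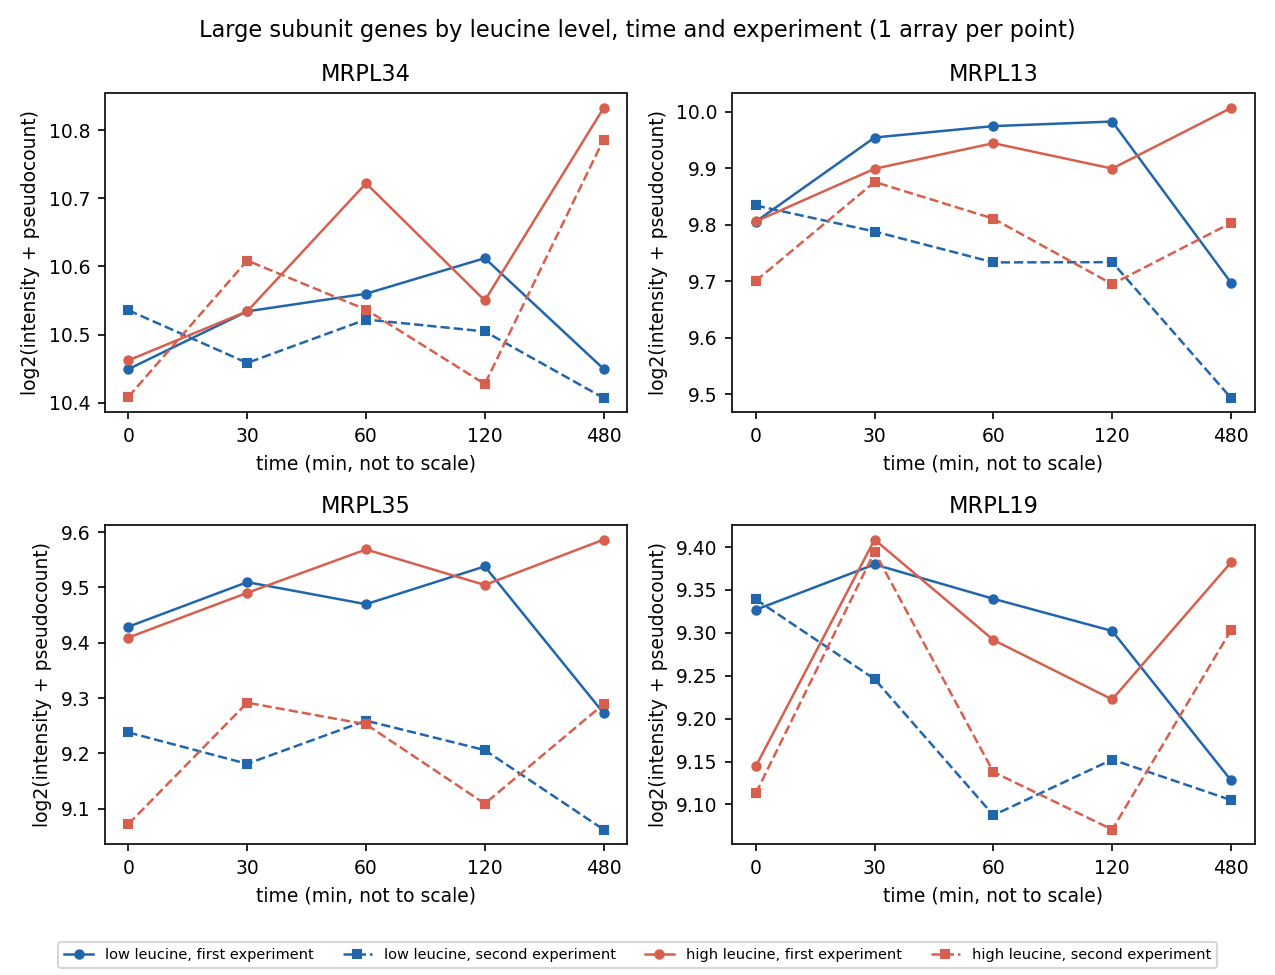
Each panel plots log2(intensity + pseudocount) of 1 large subunit gene against time in min, with 1 point per array, low leucine in blue, high leucine in red, the first experiment as circles on solid lines and the second as squares on dashed lines. At 480 min the red points lie above the blue points of the same experiment in all 4 panels, by 0.38 for MRPL34 in each experiment, and MRPL34 is at its highest in both red series.

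Several small subunit and large subunit genes came close to the threshold at 480 min. MRPS17 (uS17m) differed by 0.25 ± 0.07 (blocked adjusted p = 0.054). MRPL16 (uL16m), whose bacterial counterpart lies near the peptidyl transferase centre, differed by 0.24 ± 0.07 (0.0582). MRPS12 (uS12m), the protein of the decoding centre, differed by 0.30 ± 0.08 (0.0632). None of these passed in either fit. For MRPS12 the arrays read 977 and 1181 units in low and 1283 and 1472 in high leucine, so the groups do not overlap. Its other probe sets were below the filter and not tested. Their means at 480 min in low and high leucine were 338 and 381 units, 271 and 278, and 205 and 210. At 0 min in high leucine these means were 308, 281 and 188 units in the same order. At the other end, MRPL2 (uL2m of the peptidyl transferase region) was at -0.20 ± 0.08 (adjusted p = 0.231) and MRPS18B, an S18 homolog of the small subunit, at -0.14 ± 0.06 (0.295).

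The best known members otherwise gave small values at 480 min. MRPL3 (uL3m) was at -0.02 ± 0.05, MRPS16 (bS16m) at 0.01 ± 0.07 and MRPS22, a mitochondria-specific protein of the small subunit, at 0.08 ± 0.07. In the stalk, which binds translation factors, MRPL11 was at -0.02 ± 0.09 and MRPL12 at 0.02 ± 0.06. MRPL18 (uL18m of the central protuberance) was at 0.17 ± 0.06 and MRPL44, a protein near the tunnel exit related to RNase III, at 0.14 ± 0.08. MRPS18A and MRPS30, which sit in the large subunit despite their symbols, were at 0.01 ± 0.06 and 0.07 ± 0.07. None of these 9 passed, and the blocked adjusted p ran from 0.107 for MRPL18 to 0.969 for MRPS16.

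Over all 49 genes kept the median difference at 480 min was 0.07, against -0.01 over all probe sets, and 36 of 49 were positive, against 47.2% of all probe sets. Single experiments gave medians of 0.09 (first) and 0.08 (second), with 28 genes higher in both and 8 lower in both. Of all probe sets 30.9% were higher in both, and 63.3% had the same sign in both. The size moved with the scaling, and the median was 0.07 with values as deposited and 0.10 with median centring. Leaving out 1 array gave medians from 0.04 to 0.13. Each median rests on 4 arrays and is a description.

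By role, the 20 large subunit genes with bacterial counterparts had a median of 0.06, and 4 of them rose. The other 12 large subunit genes, which have no bacterial counterpart in that subunit, had a median of 0.08 and 0 calls. A set of 10 small subunit genes with bacterial counterparts, in which MRPS28 was not counted, had a median of 0.03 and 0 calls. The other 7 small subunit genes, MRPS28 among them, were all positive, from 0.01 to 0.19 with a median of 0.08, and 0 passed. The 6 genes at the tunnel exit were also all positive, with a median of 0.10 and 0 calls. Differences between these groups were not tested.

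**Figure D2:**
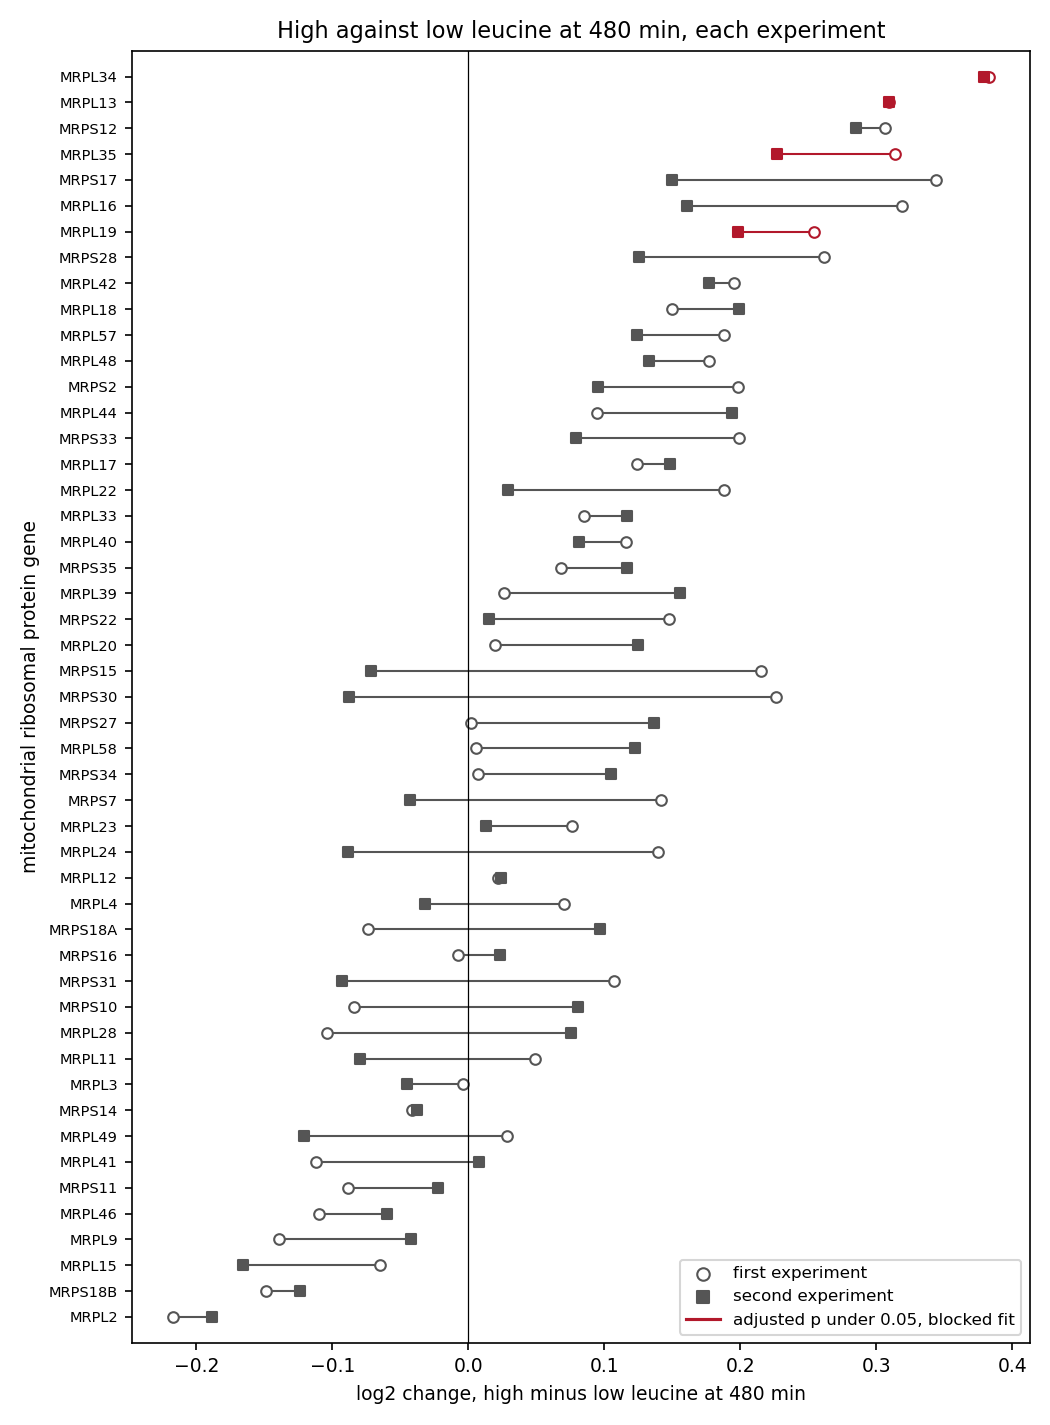
Each line shows 1 of the 49 genes kept, with its log2 change between high and low leucine at 480 min in the first experiment (open circle) and the second (square), ordered by the mean, and red marks an adjusted p under 0.05 in the blocked fit. The 4 red genes are among the 7 highest, 28 genes are right of 0 in both experiments and 8 are left of 0 in both.

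At earlier times leucine level called few members. At 0 min the blocked fit called 1 member lower, against 0.495% of all probe sets, and 0 higher, against 0.0825%. This was the dimmer of the 2 MRPS18B probe sets by mean over all arrays, which read 1428 and 1431 units in low and 1074 and 1072 in high leucine. It differed by -0.32 ± 0.07 (blocked adjusted p = 0.0492), the call was lost in 18 of 20 fits that left out 1 array, and the brighter probe set of the gene showed no call. MRPL20 (bL20m, needed in bacteria to assemble the large subunit) read 1898 and 1956 units in low and 1437 and 1490 in high leucine at 0 min. These groups lie far apart, at -0.31 ± 0.07, with a blocked adjusted p of 0.0504 and an unblocked one of 0.473.

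At 30, 60 and 120 min limma called 0 members in either fit. The blocked fit called 0% of all probe sets at 30 min, 0% at 60 min and 0.03% at 120 min. At unadjusted p under 0.05 the blocked fit had 0 of 49 genes at 30 min, 1 at 60 and 0 at 120 min. Of all probe sets 4.45%, 3.14% and 4.51% were under it. The unblocked fit had 0 genes at each time, against 1.16%, 0.765% and 1.03%. The medians of the members were 0.02, 0.03 and -0.01. Averaged over all 5 times, 0 members passed in either fit, against 0.173% of all probe sets in the blocked fit. There 3 genes had an unadjusted p under 0.05, against 7.11% of all probe sets. In the unblocked fit 1 gene did, against 2.32%. MRPL34 had the smallest p, at 0.08 ± 0.03 (blocked adjusted p = 0.481).

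Within high leucine, members changed in both directions between 0 and 480 min. In the blocked fit 9 of 56 member probe sets rose, against 8.64% of all probe sets, and 3 fell, against 6.61%, so the share that rose was 16.1% and the share that fell 5.36%. With values as deposited 10 rose and 0 fell, and with median centring 11 rose and 0 fell. Without a first array at 0 or 480 min 5 members were called in all, and without a second array at either time 1 was. The unblocked fit called 1 member, MRPL34, against 1.13% of all probe sets called higher. This comparison shares its arrays at 480 min with the comparison of leucine levels above.

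MRPL34 rose by 0.37 ± 0.06 from 0 to 480 min in high leucine (limma, blocked adjusted p = 0.00154, unblocked 0.027). The unblocked call was lost without any 1 of the 4 arrays involved, with adjusted p from 0.084 to 0.195, and the blocked call held without each of the 20. MRPS2, which encodes uS2m of the small subunit, read 1000 and 818 units at 0 min and 1312 and 1314 at 480 min in high leucine. Its arrays do not overlap, and it rose by 0.41 ± 0.08 (blocked adjusted p = 0.00502; 0.069 without the second array at 0 min and 0.0691 without the second at 480 min). MRPS12 read 1005 and 987 units, then 1283 and 1472, again without overlap, and rose by 0.34 ± 0.08 (0.0142; 0.144 and 0.0934 without the same arrays).

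MRPL20 rose by 0.27 ± 0.07 (blocked adjusted p = 0.0148), from the 1437 and 1490 units above to 1933 and 1934. In high leucine it already read 1991 and 2075 units at 30 min, so the low values are those at 0 min. In low leucine it read 1863 and 1730 units at 480 min, and the levels were not called different at that time. Smaller rises were those of MRPS28 and MRPS17, by 0.23 each, MRPL19 by 0.21 and MRPL35 by 0.20, with blocked adjusted p from 0.0212 to 0.0358. Each of these 5 calls was lost without any 1 of the 4 arrays it compares. For MRPL9 (bL9m) the dimmer probe set rose by 0.24 ± 0.06 (0.0148; 0.12 without the second array at either time), while the probe set that represents the gene read 1034 and 1191 units at 0 min and 1051 and 1165 at 480 min, which overlap. The probe sets of this gene therefore differ, and no direction is given for it.

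The falls were those of MRPL24 (uL24m at the tunnel exit), MRPS16 and MRPS18B. MRPL24 read 1692 and 2130 units at 0 min and 1647 and 1687 at 480 min, and fell by 0.27 on the normalized log2 scale (SE 0.07, blocked adjusted p = 0.0223), but not with values as deposited (adjusted p = 0.129) or median centring (0.160), nor without the second array at 0 min (0.194) or at 480 min (0.214). MRPS16 was at -0.23 ± 0.07 (0.0299) and MRPS18B at -0.20 ± 0.06 (0.0492). Neither passed under those scalings, with adjusted p from 0.157 to 0.316, nor without some single arrays, with adjusted p up to 0.248.

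Within low leucine the blocked fit called 1 member lower from 0 to 480 min, against 0.09% of all probe sets, and 0 higher, against 0.143%. It was again the MRPS18B probe set of the 0 min comparison, which went from 1428 and 1431 units to 1093 and 1082 and fell by 0.36 on the log2 scale (SE 0.07, adjusted p = 0.0449). The call was lost under 5 of 9 other settings and in 13 of 20 fits that left out 1 array, with adjusted p up to 0.604. Without the first low leucine array at 0 min the count was 7. Of the 49 genes, 34 were lower and 15 higher, where 49.7% of all probe sets were higher. The members' median was -0.06. By experiment the median was 0.00 (first) and -0.11 (second). MRPS33 was at -0.28 ± 0.08 (adjusted p = 0.0955) and MRPL24 at -0.28 ± 0.07 (0.0965).

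The change from 0 to 480 min itself was compared between leucine levels, which uses the arrays of both comparisons above. In the blocked fit 5 member probe sets changed more upward in high leucine, against 2.69% of all probe sets, and 0 more downward, against 1.13%. The unblocked fit called 0 members and 0% of all probe sets. There 8 of 49 genes had an unadjusted p under 0.05, against 7.79% of all probe sets. In the blocked fit 12 did, against 20.2%. MRPL34 differed by 0.44 ± 0.09 (blocked adjusted p = 0.0173), with a change of -0.06 in low and 0.37 in high leucine. MRPL19 differed by 0.43 ± 0.08 (0.0129), at -0.22 and 0.21.

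For MRPL35 the difference was 0.36 ± 0.08 (blocked adjusted p = 0.0207), at -0.17 and 0.20. For MRPL20 it was 0.38 ± 0.09 (0.0353), at -0.11 and 0.27. For MRPL13 it was 0.38 ± 0.09 (0.037), at -0.22 and 0.15. All 5 encode large subunit proteins with bacterial counterparts, but whether this class differs from the other members was not tested. The difference between levels at 0 min, which enters these values, was below 0 for each of the 5: -0.31 for MRPL20, -0.20 for MRPL19, -0.09 for MRPL35, -0.07 for MRPL13 and -0.06 for MRPL34. None of these passed, with blocked adjusted p from 0.0504 (MRPL20) to 0.706 (MRPL34). When the low leucine array of the second experiment at 0 min was left out, 0 members were called. Without 1 of the other 7 arrays at 0 or 480 min, the count lay between 1 (second high leucine array at 480 min) and 4 (first low leucine array at 0 min). With array weights 0 were called.

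Averaged over leucine levels, MRPS2 rose at 60 and at 480 min in the blocked fit. It was 0.24 ± 0.06 above 0 min at 60 min (blocked adjusted p = 0.0478), 0.24 ± 0.06 at 120 min (0.0644) and 0.35 ± 0.06 at 480 min (0.0017). In the second experiment its 0 min arrays read 797 units in low and 818 in high leucine, the lowest of all 20, and the rise to 480 min was 0.53 there against 0.18 in the first experiment. Whether this rise differed between experiments from 0 to 480 min was not tested. The call at 60 min was lost in 15 of 20 fits that left out 1 array, with adjusted p up to 0.154.

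That call at 60 min was the only member of 56, against 1.16% of all probe sets called higher and 1.37% lower. At 30 min and 120 min limma called 0 members in either fit, against 0.0075% and 0.893% of all probe sets in the blocked fit. There 10 and 7 of 49 genes had an unadjusted p under 0.05, against 13.4% and 19.5% of all probe sets. In the unblocked fit 3 and 2 genes did, against 4.09% and 6.77%.

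At 480 min averaged over levels, 3 members rose, against 6.49% of all probe sets, and 3 fell, against 4.46%. The rises were those of MRPS2, MRPS12 (0.24 ± 0.06, adjusted p = 0.0181) and MRPL34 (0.15 ± 0.05, 0.0417). The falls were those of MRPL24 at -0.27 ± 0.05 (0.00403), the dimmer MRPS18B probe set at -0.27 ± 0.05 (0.00281) and MRPS33, a small mitochondria-specific protein, at -0.19 ± 0.05 (0.0295). With values as deposited and with median centring MRPS33 did not pass (adjusted p = 0.0808 and 0.11). The unblocked fit called 0 members, against 1.21% of all probe sets. There 7 of 49 genes had an unadjusted p under 0.05, against 12.2% of all probe sets. MRPL34 lost its call in 13 of 20 fits that left out 1 array, with adjusted p up to 0.122. MRPS12 and MRPS33 each lost theirs without any 1 of the 4 arrays of the second experiment at 0 and 480 min, with adjusted p up to 0.0997 and 0.143.

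**Figure D3:**
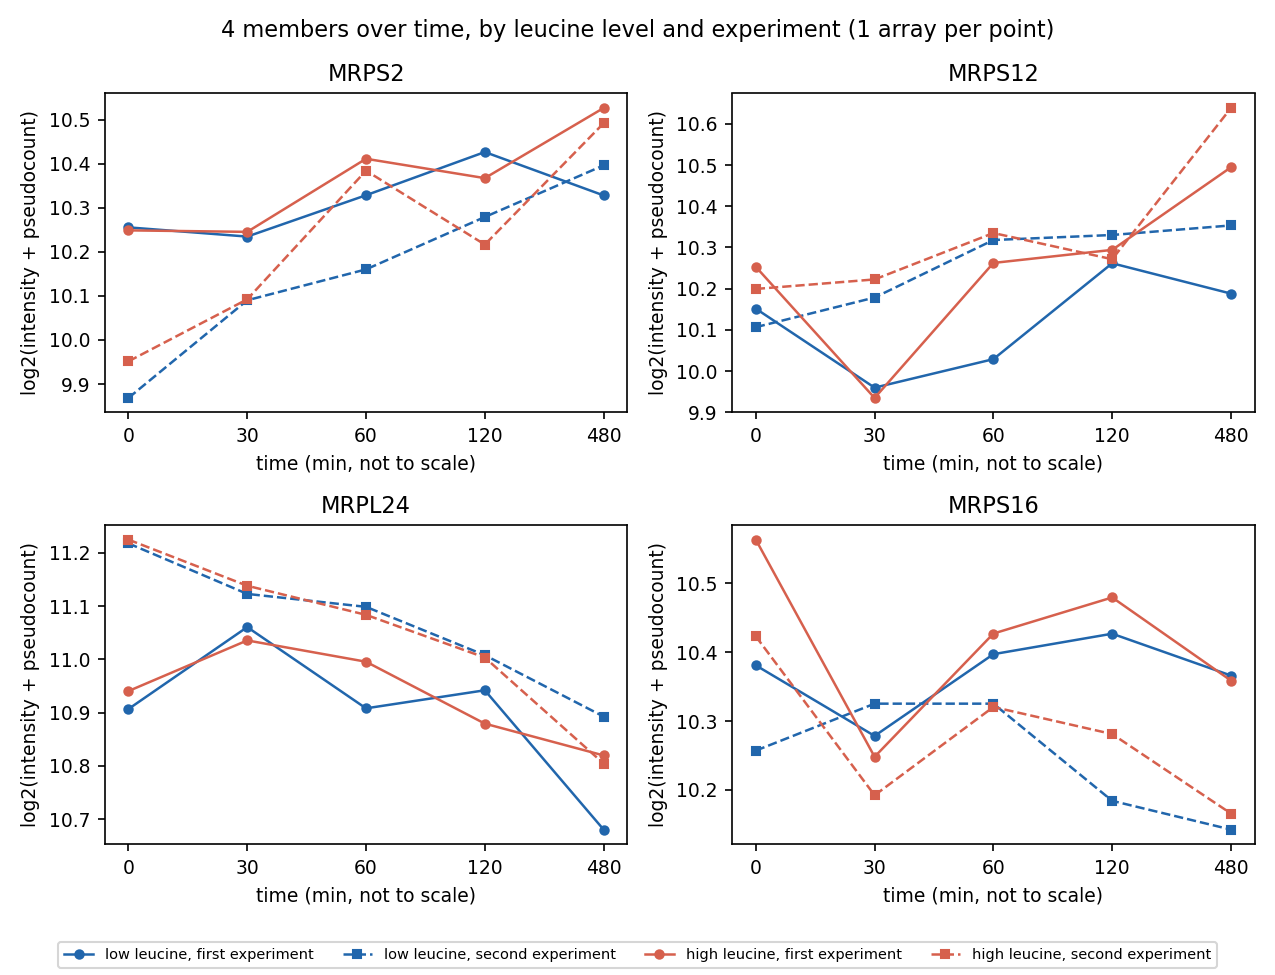
Each panel plots log2(intensity + pseudocount) of 1 gene against time in min, with 1 point per array, low leucine in blue, high leucine in red, circles for the first experiment and squares for the second. MRPS2 starts lowest in both series of the second experiment, MRPS12 ends highest in high leucine, MRPL24 ends below its start in all 4 series, and MRPS16 is highest at 0 min in both high leucine series.

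The comparison of the experiments gave the most calls. Of 56 member probe sets 39 differed between second and first experiment, 13 higher and 26 lower. Of all probe sets 62% differed, 36.1% higher and 26% lower, so the members' split leaned to lower values. With values as deposited it was 23 higher and 13 lower, and the median over all probe sets moved from 0.03 to 0.11. The members' median was -0.05 after quantile normalization and 0.02 as deposited, in both cases below that of all probe sets by 0.07 to 0.08.

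MRPL39, a mitochondria-specific large subunit protein, ran from 1225 to 1405 units in the first experiment (median 1336) and from 1009 to 1179 in the second (median 1089). Its 10 arrays of each experiment do not overlap, and the difference was -0.32 ± 0.03 (unblocked adjusted p = 3.1e-08). MRPL11 of the stalk went the other way, from 832 to 1089 units (median 996) in the first and from 1262 to 1590 (median 1398) in the second, at 0.37 ± 0.04 (1.1e-06). MRPS35 rose by 0.30 ± 0.03, likewise without overlap.

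The remaining large differences were rises of MRPL23 (0.18) and MRPL24 (0.14), and falls of MRPL35 (-0.28), MRPL44 (-0.24) and MRPL4 (-0.23). The arrays of the experiments did not overlap for 6 of 56 member probe sets (10.7%), against 15.3% of all probe sets.

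For 3 genes the probe sets disagreed between experiments. The brightest MRPS31 probe set ran from 712 to 925 units in the first and from 422 to 709 in the second experiment, without overlap, and differed by -0.50 ± 0.06 (adjusted p = 2e-06), while the other differed by 0.07 ± 0.02. An MRPL57 probe set that also carries the mark for possible cross-hybridisation fell by 0.67 on the log2 scale (SE 0.03), from 1244 to 1514 units down to 808 to 936, while the other probe sets of MRPL57 differed by -0.05 and 0.04. The brightest MRPL9 probe set differed by 0.13 and the other by -0.12. For these genes no single direction is given.

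**Figure D4:**
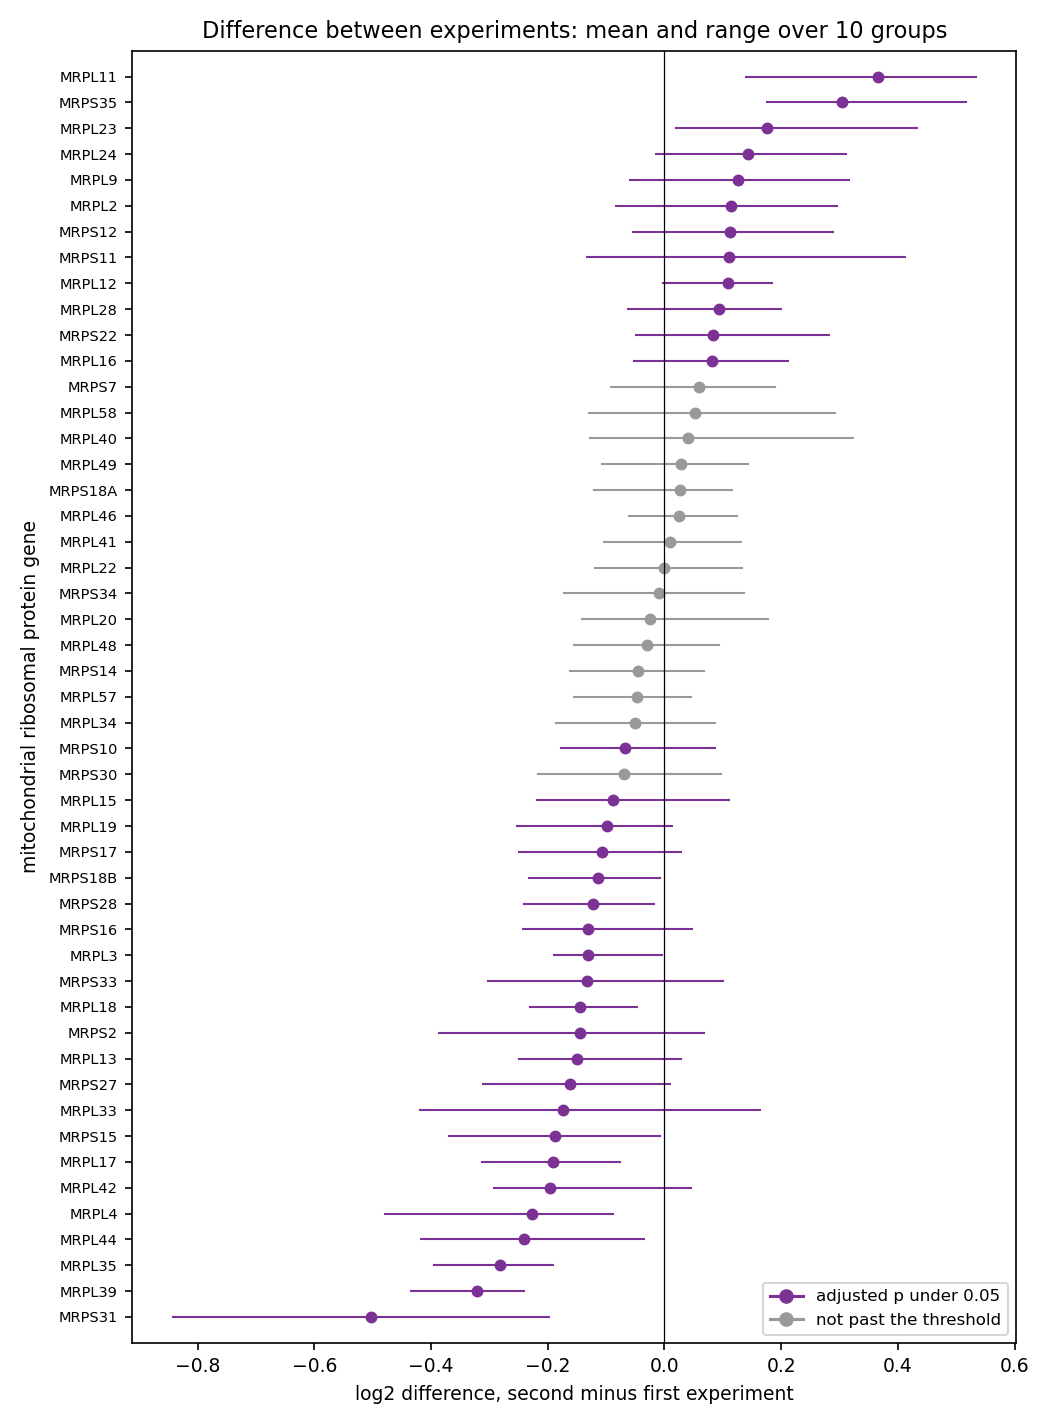
Each point is the log2 difference between second and first experiment of 1 of the 49 genes kept, averaged over the 10 groups of leucine level and time, and the line spans the 10 single differences. Purple marks an adjusted p under 0.05, and MRPL11 and MRPS35 at the top and MRPS31, MRPL39 and MRPL35 at the bottom keep 1 sign in all 10 groups.

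Whether the experiments changed differently over time was tested in a model of experiment by time, with leucine level as an additional term. Limma called 0 members from 0 to 60 min, against 0.72% of all probe sets, and 0 from 0 to 120 min, against 0.653%. At an unadjusted p under 0.05 there were 5 of 49 genes in each, against 11.1% and 7.98% of all probe sets. From 0 to 120 min the members' median was -0.12, against -0.01 over all probe sets. Of 49 genes 11 were positive, against 47.4% of all probe sets. MRPL2 from 0 to 60 min, at 0.36 ± 0.11 (adjusted p = 0.205), and MRPL33 from 0 to 120 min, at -0.28 ± 0.10 (0.377), had the smallest p.

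Among other genes of mitochondrial translation, 1 rose and 2 fell at 480 min in the blocked fit, where 2.48% of all probe sets were called higher and 1.61% lower. Counts this small are read as values of single genes. Of 6 kept genes for translation factors 0 were higher in high leucine, with a median of -0.06, and MTIF2, the initiation factor that brings the initiator tRNA, fell by 0.21 on the log2 scale (SE 0.05, blocked adjusted p = 0.0279). Of 12 kept genes listed under mitoribosome assembly, with a median of 0.06, 1 rose and 1 fell. The list also holds genes that act on mitochondrial mRNA. The rise was that of DHX30, an RNA helicase of mitochondrial RNA granules, at 0.26 ± 0.07 (0.0416). The fall was that of LRPPRC, which stabilises mitochondrial mRNAs, at -0.28 ± 0.07 (0.0324). In this comparison the unblocked fit called 0 genes of these lists, with adjusted p for these 3 of 0.229, 0.277 and 0.691. From 0 to 480 min within high leucine, MTIF2 was at -0.47 ± 0.05 in limma (blocked adjusted p = 4.3e-05, unblocked 0.0035). There DHX30 was at 0.23 ± 0.07 (blocked 0.038, unblocked 0.182) and LRPPRC at -0.15 ± 0.07 (0.154 and 0.669).

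The 11 kept mitochondrial tRNA synthetases had a median of -0.05 and 0 calls. The 10 kept genes that copy or transcribe mitochondrial DNA had a median of 0.01 and 0 calls, and POLRMT, the mitochondrial RNA polymerase, was at 0.14 ± 0.05 (adjusted p = 0.176). Among 6 kept regulators of mitochondrial biogenesis 0 passed. The mitoribosome subunit genes DAP3, PTCD3 and GADD45GIP1, whose symbols fall outside the rule, were at -0.07, 0.03 and 0.11, and none passed. The 53 kept genes for cytosolic ribosomal proteins had a median of -0.02, 20 were positive, and 1 fell in the blocked fit, against the 1.61% above. Differences between the lists were not tested.

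**Figure D5:**
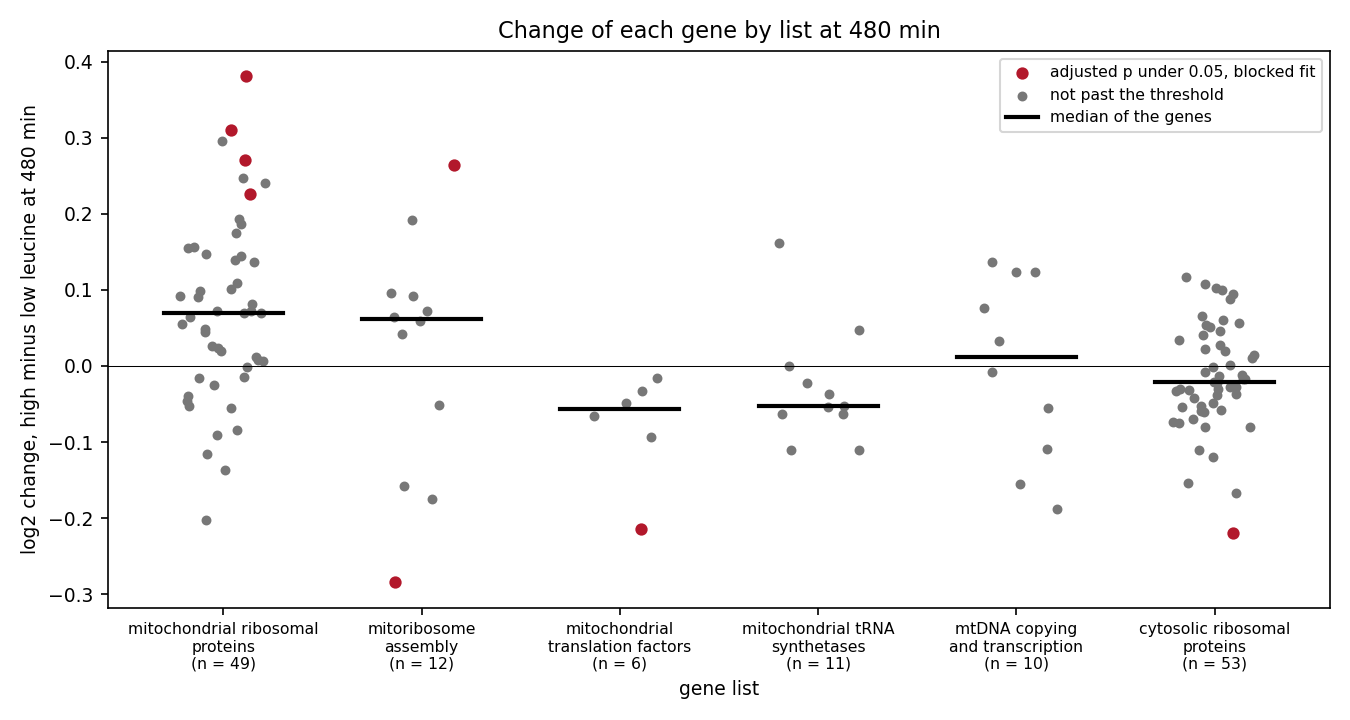
Each point is the log2 change of 1 kept gene between high and low leucine at 480 min, by gene list, with the median of each list as a black bar and calls of the blocked fit in red. The median is 0.07 for the 49 mitochondrial ribosomal proteins and -0.02 for the 53 cytosolic ones, and the 6 translation factors all lie below 0.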

How the data were processed

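RNA of 20 samples of THLE-3 cells was measured on 1-colour arrays. The deposited table of the authors holds linear intensity values per probe set. The summarisation and scaling that made them are not given in the sources used here. A pseudocount of 165.2 (the 10th percentile of an array, as a median over the 20 arrays) was added, log2 was taken, and arrays were quantile normalized. Probe sets at or above the 40th percentile of mean log2 were kept. The unblocked and blocked fits used limma 3.58.1 in R 4.3.3 over all 20 arrays, with 10 group means, an intensity trend, two-sided tests and 10 and 9 residual degrees of freedom. The fits were tested on simulated data.

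The labels name the experiment of each array. Deviations from the group mean of arrays of the same experiment correlated in all 45 pairs of groups, from 0.808 to 0.928 (median 0.869), so blocked values stand beside unblocked ones.

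Members, gene lists and tests were chosen with earlier results of these data known. Named members were, per comparison, those past the unblocked threshold, up to 6 with the smallest blocked p, the 5 largest rises and falls between experiments, 12 set genes the extremes of level, and up to 3 genes of other lists with the smallest blocked p at 480 min. Other members past the blocked threshold, and MRPL52 and MRPS34 for their promoters, were named after their values were seen. Alternatives were other pseudocounts, scalings, filters, variance settings, 1 probe set per gene and each array left out.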

Additional observations from a re-analysis of the deposited data

Results flagged for a closer look

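The change from 0 to 480 min differed between leucine levels, by a test of the difference itself in the blocked fit of limma, for 5 members. The difference (high minus low leucine, log2) was 0.43 for MRPL19 (adjusted p = 0.0129), 0.44 for MRPL34 (0.0173), 0.36 for MRPL35 (0.0207), 0.38 for MRPL20 (0.0353) and 0.38 for MRPL13 (0.037). Each had the same sign in both experiments. In the unblocked fit the adjusted p of these genes ran from 0.243 to 0.887. The difference at 0 min is part of each of these values. It was -0.31 for MRPL20 (blocked adjusted p = 0.0504), -0.20 for MRPL19 (0.106), -0.09 for MRPL35 (0.434), -0.07 for MRPL13 (0.664) and -0.06 for MRPL34 (0.706), and none of these passed. MRPL13 and MRPL34 differed in sign between the experiments at 0 min.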

How the results depend on the processing

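The limits are those of 2 arrays per group. Every member call on leucine or time except 1 (MRPL34 from 0 to 480 min in high leucine) needs the experiment as a block. Without the block, the difference between the experiments counts as spread within each group. The authors' own scaling is unknown. The cause of the changes below was not tested, except that a lone array left out leaves a group of 1, which is then assumed to vary like the others.

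The replicate block moved the number of members called from 0 to 1 at 0 min and to 4 at 480 min (high against low leucine), from 0 to 1 for 480 against 0 min in low and from 1 to 12 in high leucine, from 0 to 5 for the difference of these changes, and from 0 to 1 and 6 at 60 and 480 min averaged over levels. It changed no count at 30 or 120 min.

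Blocked counts also moved as follows. For leucine at 0 min (1 member) the count was 0 with a pseudocount 4 times larger, median centring, no filter, array weights or 1 probe set per gene, and 2 with a pseudocount 4 times smaller, values as deposited, a filter at the 60th percentile or no intensity trend. For 480 against 0 min in low leucine (1 member) it was 0 as deposited, with median centring, no filter, array weights or 1 probe set per gene. Median centring gave 8 in place of 5 for the difference of changes, 5 in place of 1 at 60 min and 1 in place of 0 at 120 min. Array weights gave 5 in place of 12 for 480 against 0 min in high leucine, 0 for the difference of changes, 0 at 60 min and 3 in place of 6 at 480 min averaged over levels, and the 60th percentile filter gave 0 at 60 min. Unblocked counts for 480 against 0 min in high leucine were 3 as deposited, 2 with median centring and 0 with array weights, against 1. They were 1 in place of 0 at 480 min averaged over levels as deposited, and at 480 min between leucine levels with the 60th percentile filter.

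The members' median log2 change between leucine levels at 480 min (0.069) was 0.051 and 0.077 with the larger and smaller pseudocount, 0.075 as deposited and 0.096 with median centring. The difference of changes (0.093) was 0.069, 0.103, 0.135 and 0.142 in that order. The average over times was 0.025 with the larger pseudocount and 0.027 as deposited. As deposited and with median centring, the medians were -0.047 and -0.033 at 0 min, -0.045 and -0.041 at 120 min, 0.084 and 0.094 for 480 against 0 min in high leucine, and 0.043 and 0.047 for 30 against 0 min. At 60 min the median was 0.053 as deposited, at 30 min 0.042 with median centring, and for 60 against 0 min 0.083 with median centring. Between experiments it was 0.022 as deposited, and from 0 to 120 min between experiments -0.078 with the larger pseudocount and -0.076 as deposited.

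Leaving out 1 array gave medians from -0.011 to 0.021 at 0 min, 0.016 to 0.042 at 30 min, 0.0050 to 0.061 at 60 min, -0.063 to 0.028 at 120 min, 0.044 to 0.13 at 480 min and 0.019 to 0.045 over all times. For time they ran from -0.032 to 0.066 (480 against 0 min in high leucine), 0.013 to 0.13 (difference of changes), -0.010 to 0.039 (30 min), -0.0032 to 0.032 (60 min) and -0.15 to -0.055 (0 to 120 min between experiments). Blocked counts ran from 0 to 2 at 0 min and 1 to 5 at 480 min between levels, 0 to 7 and 1 to 13 for 480 against 0 min in low and high leucine, 0 to 6 for the difference of changes, 0 to 1 at 60 and at 120 min, and 3 to 9 at 480 min averaged. Unblocked counts ran from 0 to 1 for 480 against 0 min in high leucine and averaged.

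Of the 11 set genes followed under each setting at 480 min, none of which passed in either fit with the main settings, 6 changed sign under at least 1 setting. Other members below the threshold were not followed. Over all 49 genes 36 had the same sign in both experiments, against 63.3% of all probe sets. MRPL11 (-0.015) was 0.00011 as deposited, 0.021 with median centring and between -0.14 and 0.11 without 1 array, and MRPL3 (-0.025) was 0.019 with median centring. Without 1 array MRPL12 ran from -0.019 to 0.064 (-0.017 without the first low leucine array at 480 min), MRPS30 from -0.023 to 0.16 (-0.013 without the first high leucine array there), MRPS16 from -0.043 to 0.060 (-0.026 without that array) and MRPS18A from -0.070 to 0.093 (-0.0018 without the second high leucine array).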
